A study of Mus musculus with 16 samples.

Results

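The injury epicenter of mouse spinal cord was compared with the mean of the segments on either side of it, gene by gene, 30 days after injury. The comparison used 12 of the 16 libraries of the series: 4 of the epicenter, 4 of the segment above it (rostral) and 4 of the segment below it (caudal). They were chosen by their group labels, and the 4 libraries of uninjured cord were not used. All 12 come from injured female mice aged 12 weeks, of a strain spelled C57BL7J in the labels. The injury was a contusion with compression by an 8 g Fejota clip at lumbar level L1/L3, and each segment was 3 mm of a 9 mm span. All 12 are labeled WT (wild type), and no transgene or drug is named. Nothing in the labels tells whether a group's libraries represent different animals or which pieces belong to one cord. The p-values therefore describe the spread among these libraries alone, which may be technical.

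A clip injury of the cord leaves a lesion core of fibroblasts and infiltrating blood-derived cells, bordered by reactive astrocytes, with phagocytes that take up myelin debris. Schwann cells, the myelinating cells of peripheral nerve, can enter such lesions, and axons cut at the lesion degenerate away from their cell bodies. Gene expression also changes along an uninjured cord, with level, so a segment can differ from a single neighbor for that reason. The mean of both neighbors, taken on the log2 scale with equal weight, removes any difference that runs linearly from above to below. What remains is given here as the epicenter minus flank mean, a log2 difference. A positive value can arise where the epicenter exceeds both flanks, and also where it resembles 1 flank and exceeds the other. Each flank's own values are therefore given beside it for many genes. Where a gene is given by its difference alone, that difference does not tell these cases apart.

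The largest epicenter difference among the genes chosen by size belonged to Mmp13, collagenase 3, a protease that cuts fibrillar collagen. Its gene and that of Mmp12, macrophage elastase, lie close together on chromosome 9. AP-1, a factor of Fos and Jun proteins, is known to bind the letters TGANTCA, which read the same on both strands. The RefSeq promoters of both genes (build GRCm38.p6, 250 bases before the start to 50 after it, plus strand) are shown because both hold this motif, in capitals. They cover chr9:7272264-7272563 for Mmp13 and chr9:7347124-7347423 for Mmp12.
Mmp13: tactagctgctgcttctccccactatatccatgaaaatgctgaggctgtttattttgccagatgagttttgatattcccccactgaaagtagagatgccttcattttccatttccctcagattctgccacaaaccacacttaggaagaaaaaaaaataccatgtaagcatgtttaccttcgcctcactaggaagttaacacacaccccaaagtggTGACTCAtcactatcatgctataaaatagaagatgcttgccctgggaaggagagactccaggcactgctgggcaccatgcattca
Mmp12: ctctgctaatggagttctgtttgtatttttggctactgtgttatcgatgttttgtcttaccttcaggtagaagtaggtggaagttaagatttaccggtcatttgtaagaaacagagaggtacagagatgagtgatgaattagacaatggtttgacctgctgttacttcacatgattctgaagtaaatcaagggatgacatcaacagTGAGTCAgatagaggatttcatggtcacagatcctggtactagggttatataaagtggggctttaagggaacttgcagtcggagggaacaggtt
The first base of the match lies at position -35 in Mmp13 and -44 in Mmp12, counted from the start. Of the 13 genes of matrix proteases and their inhibitors, 10 had a promoter in the RefSeq table and 3 of these held the motif (Mmp3, Mmp12 and Mmp13), beside 7.81% of all 32851 promoters of that length. A match is a run of letters and says nothing of binding.

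Total counts ran from 67.1 to 83.8 M (mega) at the epicenter, 71.6 to 89.5 M above and 73.7 to 90 M below. Levels are in CPM, counts scaled to a library of 1 M, and 3 counts correspond to 0.0333 to 0.0447 CPM. Rows that take reads of ribosomal RNA type held 8.10 to 13.4% of the counts at the epicenter, 4.93 to 6.98% above and 4.28 to 6.24% below. Below 3 and above 1 stood apart from their groups. On the first principal component of the 12 libraries (59.5% of the variance), epicenter libraries lay between 56.6 and 75.8. Below 3 lay beyond them at 86.1, with the other below libraries between -40.4 and 11.7. Above 1 lay at -51.3, with the other above libraries between -88.8 and -87.6. The Hox genes of lumbar and sacral level gave a mixed picture for below 3: Hoxa11, at 9.01 CPM, was within the 8.11 to 10.8 CPM of its group. Hoxd10, at 16.7 CPM (others 32.1 to 37.2), Hoxd11, at 8.48 (26.1 to 32.5), and Hoxc12, at 2.17 (6.56 to 13.6), were under it. Summed over groups 10 to 13, below 3 had 83.4 CPM, within the 59.4 to 94.4 CPM of the epicenter, above the 51.6 to 61.9 CPM of the above libraries and under the 161 to 199 CPM of the other below libraries. Its label was kept. Results are therefore given with and without below 3. Genes of neurons, astrocytes and myelin were present in every library: the lowest value was 228 CPM for Snap25, 2200 CPM for Gfap and 6878 CPM for Mbp.

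Of 23525 genes tested, 4544 (19.3%) were higher at the epicenter than the flank mean and 4846 (20.6%) were lower, by the edgeR quasi-likelihood test at an adjusted p under 0.05. The median difference was 0.80 among higher genes and -0.53 among lower ones. Differences beyond 1 on the log2 scale were unequal in direction: 1717 higher genes and 656 lower ones passed it, and 416 and 18 passed 2. The fitted epicenter level lay above both flanks in 4409 of the 4544 higher genes and below both in 4823 of the 4846 lower ones. These counts go by sign alone and include genes with no detectable difference from a flank. Of the higher genes, 1787 (39.3%) were also called higher below than above and 20 lower. Of the lower genes, 569 (11.7%) were called lower below than above and 23 higher. Single libraries were less separate than the fitted levels. All 4 epicenter libraries lay above all 8 flanking libraries in 1094 genes (4.65%) and below them in 1043 (4.43%). Without below 3 these counts were 3575 (15.2%) and 4396 (18.7%), and the test called 6972 genes higher (29.6%) and 6399 lower (27.2%). Without above 1 and below 3 together it called 7039 higher (29.9%) and 6436 lower (27.4%). Below 3 was higher than every epicenter library in 1184 of the 4544 higher genes, and lower than every one in 1497 of the 4846 lower genes. Without epicenter 4, 3203 genes were called lower. The flanks themselves differed: 2426 genes (10.3%) were higher below than above and 1198 (5.09%) lower, and without below 3 these counts were 2263 (9.62%) and 1199 (5.1%). Scaled by library totals alone, which shifted the median of all genes in that comparison to 0.124, these counts were 4000 and 455. When any 1 of the 12 libraries was left out, between 1506 genes (without above 3) and 6140 (without below 2) were called between the flanks.

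**Figure D1:**
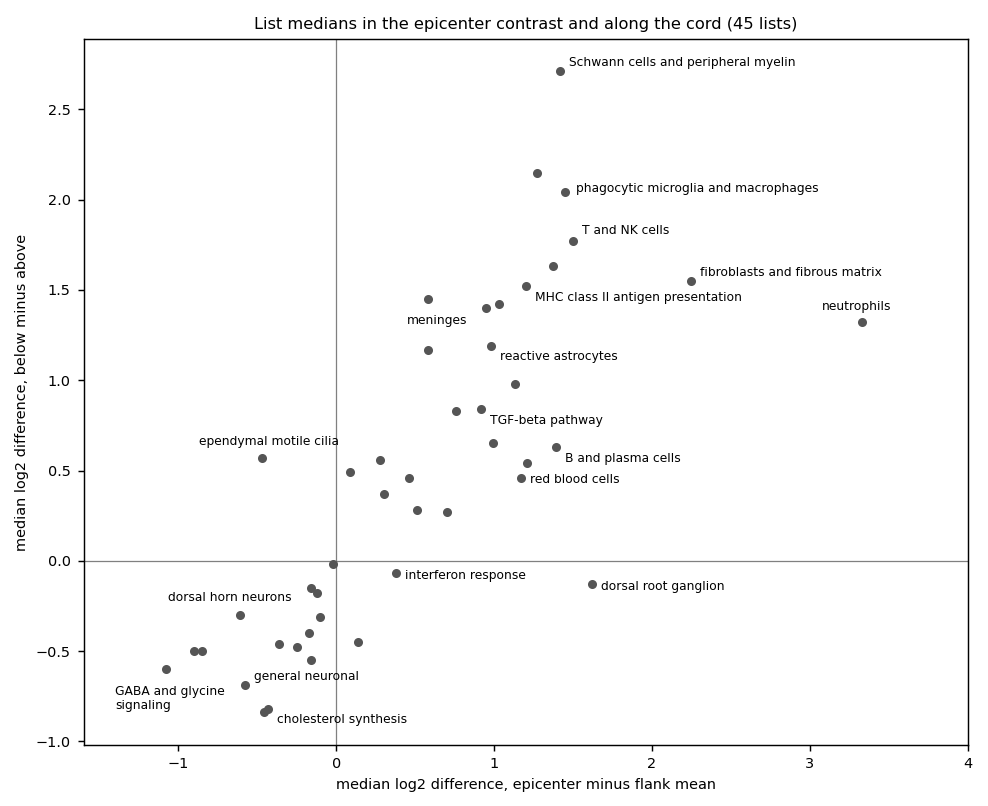
Each point is 1 gene list: the x axis gives the median epicenter minus flank mean (log2) over its tested members and the y axis the median difference of below minus above (log2), for 45 lists. The list of Hox groups 10 to 13, with a median of 9.57 for below minus above, is not drawn. Of the lists drawn, neutrophil and fibroblast genes lie far to the right, Schwann cell genes lie highest, and neuronal and cholesterol genes lie at the lower left.

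Mmp13 (mm10 chr9:7272514-7283333) had 9.07, 12.7, 42.3 and 35.6 CPM at the epicenter, against 0.636, 0.0880, 0.329 and 0.117 CPM above and 0.179, 0.359, 0.612 and 0.468 CPM below. Every epicenter library exceeded every flanking one. The difference was 6.19 ± 0.52 (SE; edgeR adjusted p = 1.19e-04), and the flanks did not differ detectably from each other (0.50, adjusted p = 0.632). Among proteases of the same list, Mmp3, stromelysin 1, stood at 4.00 ± 0.46, Mmp19 at 1.14 ± 0.25 and Mmp12 at 1.11 ± 0.36, all called. The Mmp12 call was lost when any 1 of 7 libraries was left out (above 3 or 4, below 1 or 4, epicenter 1, 2 or 3). Mmp12 had 17.3 to 38.4 CPM at the epicenter, 4.56 to 6.36 CPM above and 8.6 to 62.3 CPM below, so that the below libraries spanned the epicenter values. Timp1, an inhibitor of these proteases, rose by 2.04 ± 0.24, to 36.7 to 48.2 CPM at the epicenter, against 6.49 to 8.12 CPM above and 6.66 to 24.4 CPM below. Of the 13 proteases and inhibitors, 10 were higher and 1 lower, with a median of 1.13, beside 19.3% higher among all genes, whose median was -0.04. Epicenter libraries lay above all flanking ones in 4 of the 13.

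Fibroblast and fibrous matrix genes were higher at the epicenter in 19 of 20 cases, with a median of 2.25. In 14 of the 20 all epicenter libraries lay above all flanking ones, and in 19 without below 3. Col3a1, a chain of fibrillar collagen (mm10 chr1:45311538-45349706), had 521, 874, 744 and 939 CPM at the epicenter, 48.8, 4.15, 5.01 and 4.92 CPM above and 148, 52.8, 339 and 169 CPM below. The epicenter was highest, below came next and above was lowest, with above 1 apart from its group. The difference was 3.87 ± 0.65 (edgeR adjusted p = 0.00175). Postn, periostin, a matrix protein of wound fibroblasts, had 86.5, 253, 137 and 157 CPM at the epicenter, 6.58 to 8.17 CPM above and 10.8 to 64.1 CPM below (3.21 ± 0.36, adjusted p = 4.17e-04). Col1a1 rose by 3.25 ± 0.55 and Fn1, fibronectin, by 1.76 ± 0.33. The list's summed level was 6299 to 7948 CPM at the epicenter, 1526 to 2264 CPM above and 2478 to 5889 CPM below, the highest flanking value being that of below 3. In bulk tissue, fewer cells of a type and less RNA per cell cannot be told apart, here or in any group that follows.

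**Figure D2:**
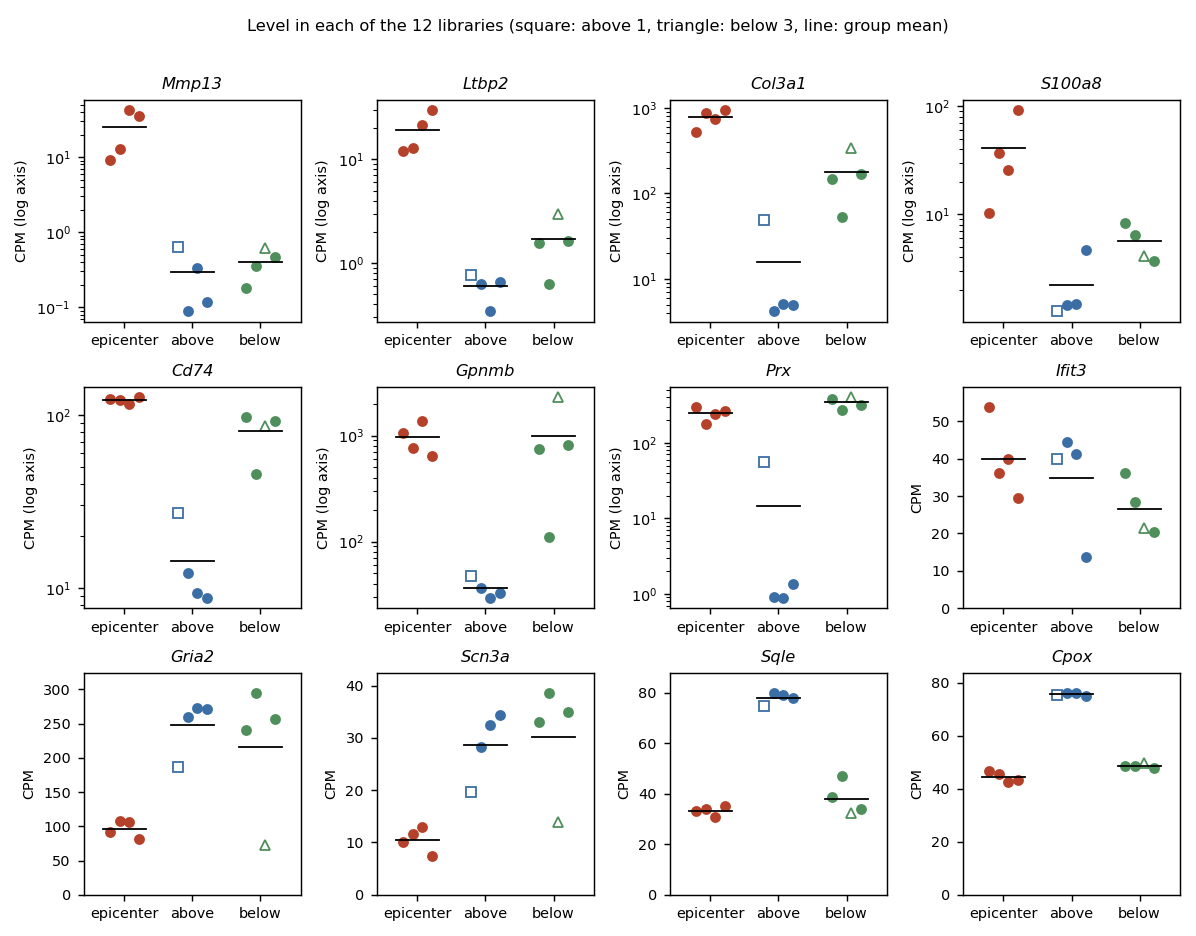
CPM of 12 genes in each of the 12 libraries, by segment (epicenter, above, below); a line marks the group mean, a square above 1 and a triangle below 3, and axes are logarithmic except for Ifit3, Gria2, Scn3a, Sqle and Cpox. Mmp13 and Ltbp2 are high only in epicenter libraries, whereas Gpnmb and Prx reach epicenter levels in some or all below libraries, and below 3 lies near the epicenter for Gria2 and Scn3a.

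Among called genes with at least 5 CPM and no overlap between epicenter and flanks, the 8 largest differences were, in order, those of Mmp13, Sfrp4, Ltbp2, Pmp2, Acp5, Col3a1, H19 and Aspn. After Mmp13 came Sfrp4, a secreted modulator of Wnt signaling (4.55 ± 0.43), and Ltbp2, a matrix protein of the latent TGF-beta binding family (4.24 ± 0.36). Ltbp2 (mm10 chr12:84783212-84876532) had 12.1, 12.8, 21.3 and 29.9 CPM at the epicenter, 0.769, 0.629, 0.341 and 0.656 CPM above and 1.56, 0.630, 2.99 and 1.65 CPM below. Its flanking libraries were all under 3 CPM, below 3 included. Aspn, asporin, which binds collagen, differed by 3.77 ± 0.42 with no detectable difference between the flanks (0.70, adjusted p = 0.353). The lowest adjusted p-values included those of Fndc1, a protein with fibronectin type III repeats (2.24 ± 0.18), and Aqp1, a water channel (3.50 ± 0.30), both at 1.19e-04. Pmp2, a lipid-binding protein of peripheral myelin, overlaps another model on its own strand over 86.9% of its exons, so its 3.88 ± 0.54 cannot be assigned to it alone. Acp5, an acid phosphatase of osteoclasts and macrophages, stood at 3.87 ± 0.50, and H19, an imprinted noncoding RNA, at 3.83 ± 0.50.

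TGF-beta, a growth factor that drives matrix production, was represented by 14 genes, of which 8 were higher and 0 lower (median 0.92). Tgfb1, a ligand, had 33.3 to 41.5 CPM at the epicenter, 8.95 to 11.3 CPM above and 12.2 to 57.9 CPM below (1.12 ± 0.29, edgeR adjusted p = 0.0107). Tgfbi, a matrix protein induced by TGF-beta, had 210, 157, 187 and 193 CPM at the epicenter, 10.8 to 19.5 CPM above and 34.1 to 148 CPM below. Its difference was 2.29 ± 0.29 (adjusted p = 6.52e-04), and no flanking library reached the epicenter range. Without below 3, 12 of the 14 genes were higher.

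All 11 neutrophil genes were higher at the epicenter, with a median of 3.33, and in 9 of them no flanking library reached any epicenter library. S100a8, a subunit of calprotectin (mm10 chr3:90669071-90670034), had 10.2, 37.1, 25.6 and 91.8 CPM at the epicenter, 1.26, 1.46, 1.48 and 4.63 CPM above and 8.30, 6.39, 4.14 and 3.73 CPM below. The epicenter values spread widely and still lay above all others. The difference was 3.54 ± 0.50 (edgeR adjusted p = 9.84e-04), and that of its partner S100a9 was 3.55 ± 0.52. The list's summed level was 147 to 541 CPM at the epicenter, 40.3 to 60.5 CPM above and 65.0 to 98.2 CPM below. Below 3, at 98.2 CPM, was under every epicenter library here. The median difference from above was 4.05 and from below 2.64, in comparisons that share the epicenter libraries.

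Red blood cell genes were higher in 7 of 8 cases (median 1.17), in 5 of which epicenter and flanks did not overlap. Hbb-bs, a beta globin with near-identical copies, had 246, 213, 278 and 216 CPM at the epicenter, 78.3 to 103 CPM above and 95.6 to 171 CPM below (1.20 ± 0.15, edgeR adjusted p = 5.85e-04). Alas2, the first enzyme of heme synthesis in red blood cells, differed by 1.07 ± 0.15. B and plasma cell genes were higher in 6 of 10 cases (median 1.39), 5 of them without overlap. Igkc, the constant region of the kappa light chain, had 3.31, 2.78, 6.47 and 9.31 CPM at the epicenter, 0.329 to 0.606 CPM above and 0.869 to 2.33 CPM below (2.64 ± 0.33, adjusted p = 6.33e-04). Cd79a, a part of the B cell receptor, rose by 2.21 ± 0.27. T and NK cell genes were higher in 13 of 14 cases (median 1.5), but from few reads: Cd3e, a part of the T cell receptor complex, had 0.286 to 0.667 CPM at the epicenter, 0.0470 to 0.118 CPM above and 0.294 to 0.690 CPM below. Its difference of 1.37 ± 0.31 is the mean of 2.40 from above and 0.33 from below, and epicenter and below values overlapped.

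**Figure D3:**
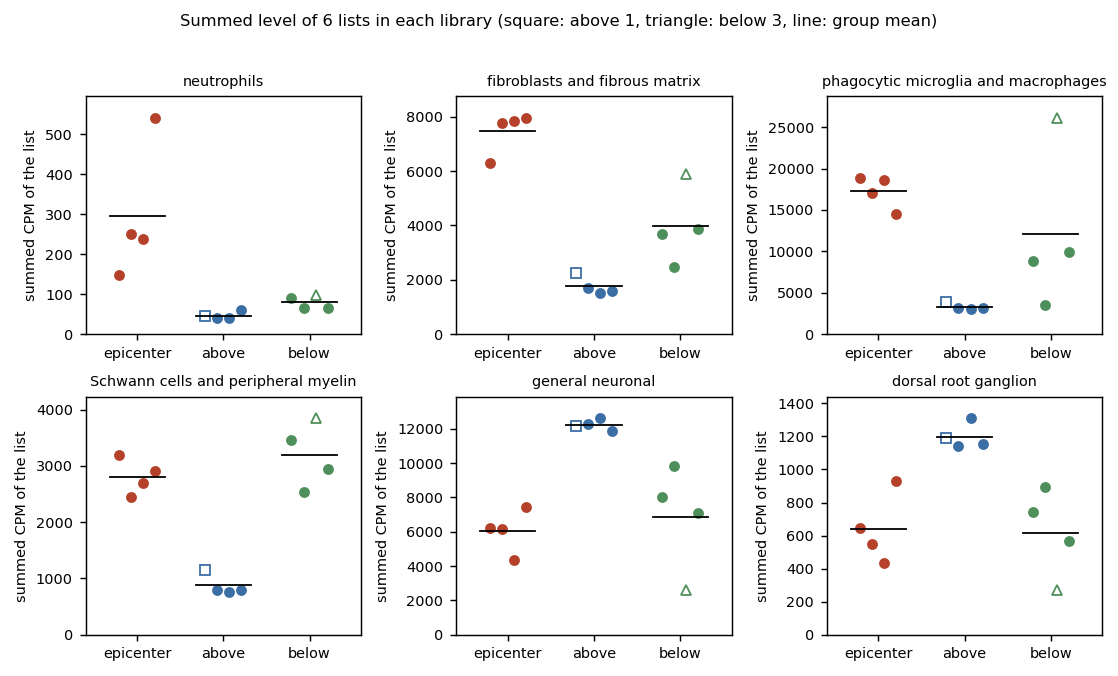
Summed CPM of 6 gene lists in each library, by segment (epicenter, above, below), with the group mean as a line, above 1 as a square and below 3 as a triangle. Neutrophil genes are high in epicenter libraries, fibroblast genes are graded, phagocyte genes spread widely below (3596 to 26090 CPM), Schwann cell genes are also high below, and general neuronal genes are lowest in below 3.

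Antigen presentation by MHC class II, which shows peptides to helper T cells, had all 10 measured genes higher (median 1.20), 5 of them without overlap. Cd74, the invariant chain, had 123, 122, 116 and 127 CPM at the epicenter, 27.0, 12.2, 9.36 and 8.78 CPM above and 96.9, 45.8, 86.6 and 91.7 CPM below. The epicenter values lay within a narrow range above all others (1.85 ± 0.27, edgeR adjusted p = 0.00113). H2-Aa, a class II alpha chain, rose by 2.12 ± 0.39 and Ciita, the regulator of class II transcription, by 0.39 ± 0.11, a call lost without epicenter 3. Chemokines were higher in 10 of 14 cases and lower in 1 (median 1.21). Ccl5, which attracts T cells, had 3.26 to 4.68 CPM at the epicenter, 0.553 to 0.947 CPM above and 0.880 to 3.16 CPM below (1.76 ± 0.30), and Ccl2, which attracts monocytes, rose by 1.45 ± 0.29.

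Genes of the interferon response, which cells switch on after sensing viral or self nucleic acid, were called higher in 2 of 16 cases, Bst2 and Gbp2, and lower in 0, beside 19.3% and 20.6% of all genes. The list's median was 0.38. The higher count was 6 with the replicate number as a block, 5 without above 1 and below 3 together, and 4 in a fit of all 16 libraries or by limma-voom with library weights. Ifit3 had 53.9, 36.3, 39.9 and 29.4 CPM at the epicenter, 39.8, 44.5, 41.3 and 13.8 CPM above and 36.1, 28.4, 21.5 and 20.5 CPM below. The 3 groups overlapped (0.39 ± 0.27, edgeR adjusted p = 0.271), and above 4 was the lowest library. Irf7, a transcription factor of the response, stood at 0.61 ± 0.34 and Cxcl10, a chemokine induced by interferon, at 0.59 ± 0.32, neither called. The summed level was 279 to 459 CPM at the epicenter, 152 to 333 CPM above and 237 to 335 CPM below.

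Phagocyte genes were higher than the flank mean in most cases, with levels that varied widely below the injury. Their summed level was 14561 to 18826 CPM at the epicenter, 3084 to 3952 CPM above and 8827, 3596, 26090 and 9924 CPM below. Below 3 exceeded every epicenter library, below 2 lay within the above range, and the other below libraries lay between the epicenter and above. Of 16 genes of phagocytic microglia and macrophages, 14 were higher (median 1.45) and in 0 did the epicenter libraries lie above all flanking ones. Gpnmb, a glycoprotein of lipid-laden phagocytes, had 1064, 767, 1376 and 636 CPM at the epicenter, 47.2, 36.2, 29.3 and 32.8 CPM above and 742, 110, 2327 and 807 CPM below. Below 3 had the highest value of all and below 2 the lowest of its group. The difference from the flank mean was 2.33 ± 0.51 (edgeR adjusted p = 0.00487), beside 4.72 from above and -0.05 from below. Trem2, a lipid receptor of microglia, rose by 1.54 ± 0.33, whereas Spp1, osteopontin (1.12 ± 0.46), and Itgax, an integrin (0.87 ± 0.39), were not called. The list's median was 2.42 from above and 0.36 from below, and 14 of the 16 genes were higher below than above. Without below 3 all 16 were higher and 10 lay above every flanking library. With the 8 flanking libraries taken as 1 group, a fit in which the difference between the flanks counts as spread, 0 of the 16 were called, beside 10.6% of all genes higher and 15.4% lower. In that fit the counts of higher genes were 11 of 11 for neutrophils, 7 of 8 for red blood cells, 6 of 10 for B and plasma cells and 13 of 20 for fibroblasts. They were 3 of 10 for class II, 4 of 14 for T and NK cells, 6 of 14 for chemokines, 6 of 13 for proteases, 5 of 14 for TGF-beta and 7 of 12 for proliferation. Among called genes given with values here, the same fit ended the calls of Pmp2, H19, Mmp12, Tgfb1, Tgfbi, Cd3e, Cd74, H2-Aa, Ciita, Gpnmb, Trem2, Ms4a7, Ccr2, C1qa, Ctsd, Plin2, Hmox1, Mki67, Top2a, Vim, Serpina3n, Kcnj10, Pmp22, Cldn5, Chat, Tac1, Penk, Hmgcs1, Idi1, Sprr1a, Atf3, Acan and Vegfa.

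Monocyte and border macrophage genes had the same order of medians, higher in 11 of 14 cases with a median of 1.27 (2.34 from above and 0.27 from below); 7 were higher without epicenter 2 or epicenter 4, and 2 with the flanks as 1 group. Ms4a7, a marker of border macrophages, had 28.5 to 42.7 CPM at the epicenter, 0.739 to 1.98 CPM above and 4.48 to 59.7 CPM below (2.57 ± 0.46). Ccr2, the chemokine receptor of monocytes, rose by 1.99 ± 0.34 from low levels, 5.02 to 9.13 CPM at the epicenter, 0.340 to 1.55 CPM above and 2.27 to 6.39 CPM below. Homeostatic microglia genes were called higher in 6 of 12 cases (median 0.51), and in 3 without epicenter 1 or epicenter 3. Tmem119 had 39.7 to 50.1 CPM at the epicenter, 20.6 to 29.5 CPM above and 20.6 to 37.2 CPM below (0.82 ± 0.14, edgeR adjusted p = 0.00209), with no flanking library in the epicenter range. P2ry12, a purine receptor of resting microglia, was at -0.13 ± 0.09 and was not called. Complement genes were higher in 10 of 14 cases (median 1.37), and in 1 with the flanks as 1 group, beside 19.3% and 10.6% of all genes. C1qa, a part of the initiating complex C1q, rose by 1.49 ± 0.31, whereas C3, the central component, was at 0.78 ± 0.30 (adjusted p = 0.0566).

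Of 16 lysosome and cathepsin genes 8 were higher and 2 lower (median 0.76), and of 13 genes of lipid efflux and storage 7 were higher and 1 lower (median 0.58). Over all genes, 19.3% were higher and 20.6% lower. The medians of these lists were 1.34 and 1.26 from above, but 0.17 and 0.01 from below. Without 1 of the epicenter libraries 1, 2 or 3, 4 lysosome genes were higher (5 without below 1 or below 4), lipid genes were 3 without epicenter 1 and 4 without epicenter 3, and with the flanks as 1 group 3 lysosome and 1 lipid gene were. Ctsd, cathepsin D, had 4593, 3711, 4739 and 3133 CPM at the epicenter, 906 to 993 CPM above and 910 to 7433 CPM below (1.21 ± 0.38, edgeR adjusted p = 0.0272), a call lost without any 1 of 5 libraries. Another model on its strand overlaps 34.4% of its exons. Plin2, a lipid droplet protein, rose by 1.01 ± 0.31, a call lost without epicenter 1, 2 or 3, while the cholesterol exporters Abca1 (0.58 ± 0.37) and Abcg1 (0.04 ± 0.15) were not called. Abca1 had 257 to 661 CPM at the epicenter, 110 to 158 CPM above and 200 to 1067 CPM below, and was higher below than above by 2.04. Hmox1, which degrades heme, rose by 1.29 ± 0.27. Genes of heme and iron handling were higher in 7 of 10 cases and lower in 1, and higher in 1 with the flanks as 1 group. In that fit 10.6% of all genes were higher. Proliferation genes were higher in 11 of 12 cases (median 0.99), among them Top2a (0.99 ± 0.27) and Mki67 (0.99 ± 0.28), the last a call lost without epicenter 3.

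Reactive astrocyte genes were higher in 15 of 16 cases (median 0.98), and 3 of the 16 had no overlap with the flanks, 11 without below 3. The count was 9 without epicenter 3 and 5 with the flanks as 1 group. Which cells expressed these genes cannot be told from bulk tissue, and Timp1 is also counted among the proteases and inhibitors. Lcn2, lipocalin 2, an iron-binding protein of inflamed tissue, had 51.4, 63.6, 75.9 and 58.9 CPM at the epicenter, 2.49 to 4.55 CPM above and 7.03 to 37.1 CPM below (2.91 ± 0.34, edgeR adjusted p = 4.68e-04). Vim, vimentin, rose by 1.01 ± 0.31 and Serpina3n, a protease inhibitor, by 0.97 ± 0.31. The Vim call was lost without epicenter 1 or 3, and the Serpina3n call without any 1 of 5 libraries (below 1 or 4, epicenter 1, 2 or 3). Gfap, the filament of astrocytes, was not called: it had 6034, 5213, 5944 and 4452 CPM at the epicenter, 3292 to 4002 CPM above and 2200 to 7962 CPM below (0.44 ± 0.27, adjusted p = 0.194). Below 3 held the highest Gfap and below 2 the lowest. Homeostatic astrocyte genes were lower in 4 of 14 cases and higher in 0 (median -0.16), beside 20.6% and 19.3% of all genes. Of the 14, 2 were lower without epicenter 4. Without below 3, 2 were higher, beside 29.6% of all genes. Slc1a2, the main glutamate transporter, fell by 0.47 and Kcnj10, a potassium channel, by 0.40, while Aqp4, the water channel of astrocyte endfeet, was at 0.00 with below 3 at 2331 CPM, against 601 to 1369 CPM at the epicenter. Genes of ependymal cilia were lower in 5 of 14 cases, and in 3 without above 4 or epicenter 1, 2 or 4; 0 were higher, and 4 without below 3.

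Schwann cell genes were higher in 8 of 14 cases and lower in 1, with a median of 1.42. The median was 2.67 from above and 0.02 from below, and below exceeded above by 2.71. Prx, periaxin, a scaffold protein of myelinating Schwann cells, had 300, 177, 239 and 266 CPM at the epicenter, 55.2, 0.918, 0.882 and 1.35 CPM above and 384, 269, 407 and 319 CPM below. Epicenter and below overlapped, and above 1 stood far from the other above libraries. Prx was not called (1.79 ± 0.88, edgeR adjusted p = 0.119), and was called without above 1. Pmp22, which central cells also express, had 592 to 728 CPM at the epicenter, 87.1 to 185 CPM above and 452 to 805 CPM below (1.30 ± 0.21, adjusted p = 0.00148). Without above 1 and below 3 together, 12 of the 14 genes were higher, beside 29.9% of all genes. With the flanks as 1 group 1 was, beside 10.6% of all genes.

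Endothelial genes were higher in 3 of 14 cases and lower in 1 (median 0.09), beside 19.3% and 20.6% of all genes, and genes of pericytes and smooth muscle in 3 of 11 and 1 (median 0.30). Without below 3, 7 endothelial and 6 pericyte genes were higher, beside 29.6% of all genes. Without epicenter 1, 1 pericyte gene was higher. Cldn5, a tight junction protein, had 47.8 to 60.4 CPM at the epicenter, 26.4 to 35.8 CPM above and 41.6 to 81.9 CPM below (0.46 ± 0.17), a call lost when any 1 of 9 libraries was left out. Meningeal genes were higher in 4 of 11 cases (median 0.95), and in all 11 without above 1 (median 2.06). Their summed level was 1099 to 1538 CPM at the epicenter, 471 to 507 CPM in above 2 to 4, 1420 CPM in above 1 and 727 to 1159 CPM below. Slc13a4, a sulfate transporter of the meninges, had 14.9 to 20.1 CPM at the epicenter, 24.1, 0.679, 0.517 and 0.668 CPM above and 7.29 to 16.7 CPM below. The fibroblast, class II and Schwann lists also hold genes for which above 1 was highest in its group, and the part of meningeal tissue in those results was not tested. Dorsal root ganglion genes were higher in 6 of 11 cases, and in 2 without epicenter 4. Scn10a, a sodium channel of sensory neurons, had 0.339, 0.753, 0.0930 and 24.8 CPM at the epicenter, so that 1 library set its value.

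**Figure D4:**
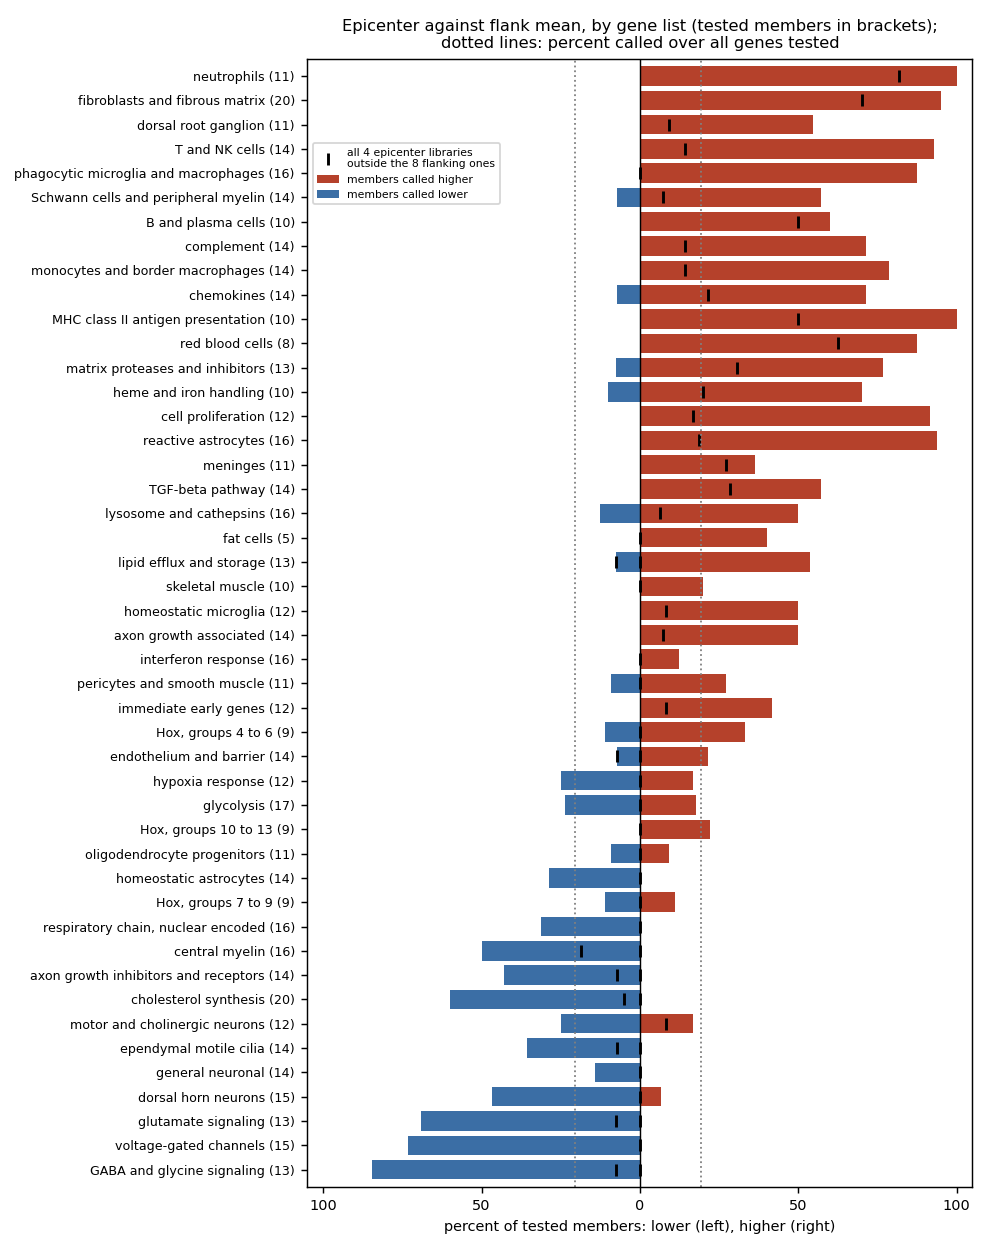
For each of 46 gene lists, bars give the percent of tested members called higher (to the right) or lower (to the left) at the epicenter against the flank mean, ticks the percent with all epicenter libraries above or below all flanking ones, and dotted lines the percent called among all genes (19.3% higher, 20.6% lower). Neutrophil and class II genes reach 100% higher, and GABA and glycine genes have the largest percent of lower members.

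Genes of synaptic transmission and of ion channels were lower at the epicenter. Genes of GABA and glycine signaling, the inhibitory transmitters of the cord, were lower in 11 of 13 cases (median -1.08), of glutamate signaling in 9 of 13 (median -0.85) and of voltage-gated channels in 11 of 15 (median -0.90), with 0 higher in each. All genes were lower in 20.6% of cases. Gria2, a subunit of AMPA glutamate receptors, had 91.2, 107, 106 and 81.3 CPM at the epicenter, 187, 259, 272 and 271 CPM above and 240, 294, 72.1 and 256 CPM below. Every flanking library but below 3 exceeded the epicenter (-1.26 ± 0.30, edgeR adjusted p = 0.00682). Gabrb2, a GABA receptor subunit, fell by 1.89, Gad1, which makes GABA, by 1.08, and Slc17a6, which loads glutamate into vesicles, by 1.11; the last 2 calls were lost without epicenter 1, 3 or 4. Scn1a and Kcna2, a sodium and a potassium channel, each stood at -1.32, with SEs of 0.43 and 0.32; the Scn1a call was lost when any 1 of 6 libraries was left out. The channel count was 6 without epicenter 3, and 7 without above 3, below 1 or epicenter 2 or with the flanks as 1 group. The 3 lists had 1, 1 and 0 members with all epicenter libraries below all flanking ones, and 12, 12 and 13 without below 3, where 13 of 13, 12 of 13 and 15 of 15 were called lower.

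Only 2 of 14 general neuronal genes were called lower (median -0.58), and 10 without below 3. All genes were lower in 20.6% of cases, and in 27.2% without below 3. Snap25, a vesicle fusion protein, had 926, 1028, 628 and 1076 CPM at the epicenter, 1996 to 2264 CPM above and 1297, 1712, 228 and 1298 CPM below. Below 3 lay under every other library, and the difference was not called (-0.76 ± 0.38, edgeR adjusted p = 0.127). Rbfox3, which encodes the neuronal marker NeuN, was at -0.75 ± 0.39. Of 12 motor and cholinergic neuron genes 3 were lower and 2 higher; 7 were lower without below 3, and 0 with the flanks as 1 group. Chat, which makes acetylcholine, had 13.2, 10.7, 7.32 and 13.8 CPM at the epicenter, 23.8 to 26.1 CPM above and 8.82 to 18.1 CPM below (-0.73 ± 0.20). Dorsal horn genes were lower in 7 of 15 cases and higher in 1, and lower in 14 without below 3, in 1 without epicenter 4, in 2 without epicenter 3, in 3 without epicenter 1 and in 4 without below 2 or below 4. Among their peptides, Tac1, which encodes substance P, fell by 0.76 and Penk, an opioid precursor, by 0.60. The Tac1 call was lost without epicenter 1, 3 or 4, and the Penk call without any 1 of 7 libraries (above 2 or 4, below 2 or 4, epicenter 1, 3 or 4). Tac1 had 11.2 to 28.0 CPM at the epicenter, 21.8 to 25.2 CPM above and 31.2 to 63.7 CPM below, with a difference of -0.28 from above and -1.25 from below.

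The lower genes taken by size, free of overlap with any flanking library, began with Gabrq and Pcsk1. Gabrq, the theta subunit of GABA receptors (mm10 chrX:72825178-72842602), had 4.36, 4.01, 3.35 and 2.42 CPM at the epicenter, 8.98, 10.9, 12.6 and 11.4 CPM above and 11.2, 11.6, 4.42 and 11.6 CPM below. Below 3 lay just above the highest epicenter library (-1.54 ± 0.26, edgeR adjusted p = 0.00170). Pcsk1, an enzyme that cuts prohormones (mm10 chr13:75089826-75132498), had 8.90, 10.6, 7.95 and 8.29 CPM at the epicenter, 20.8, 22.6, 26.9 and 28.6 CPM above and 25.9, 29.2, 12.5 and 32.8 CPM below. It fell by 1.48, by nearly as much from above (-1.47) as from below (-1.49). Others were the sodium channel Scn3a (-1.48 ± 0.27), the adhesion molecule Ncam2 (-1.39 ± 0.24), the serotonin receptor Htr2a (-1.36 ± 0.23), the cadherin Dchs2 (-1.25 ± 0.25) and the lipoprotein receptor Lrp1b (-1.24 ± 0.20). None of these 7 was called between the flanks (adjusted p from 0.198 to 0.955).

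The lower genes with the smallest p-values had small and even differences. Tmeff1, a membrane protein with follistatin-like domains, had 35.7, 36.7, 34.2 and 35.1 CPM at the epicenter, 66.5 to 70.1 CPM above and 39.6 to 45.1 CPM below (-0.60 ± 0.06, edgeR adjusted p = 1.83e-04). Cpox, an enzyme of heme synthesis (mm10 chr16:58670208-58680391), had 46.6, 45.6, 42.4 and 43.4 CPM at the epicenter, 75.0 to 76.0 CPM above and 47.8 to 49.8 CPM below (-0.45 ± 0.05, adjusted p = 4.62e-04). Both were ordered epicenter, below, above, with the below values near those of the epicenter. Lrrn1, a leucine-rich repeat protein of neurons, fell by 0.81, and Aldh5a1, which degrades GABA, by 0.84.

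Cholesterol synthesis genes were lower in 12 of 20 cases with 0 higher (median -0.43), beside 20.6% of all genes lower. With the flanks as 1 group 4 were lower, beside 15.4% of all genes. The median was -0.77 from above and 0.00 from below, and 19 of the 20 genes were lower below than above, with a median of -0.82. Sqle, squalene epoxidase, had 33.1, 34.1, 31.0 and 35.2 CPM at the epicenter, 74.7, 79.8, 79.0 and 78.0 CPM above and 38.7, 47.1, 32.3 and 34.1 CPM below (-0.71 ± 0.09, edgeR adjusted p = 8.20e-04). The above libraries were the separate group. Hmgcs1, which makes HMG-CoA, fell by 0.66 and Idi1, which makes an isoprenoid unit, by 0.63. Genes of central myelin were lower in 8 of 16 cases (median -0.25), again with a median of -0.02 from below, and in 3 with the flanks as 1 group. Mog, a glycoprotein of the outer myelin surface, had 121 to 154 CPM at the epicenter, 195 to 198 CPM above and 110 to 156 CPM below. It was not called (-0.19 ± 0.10, edgeR adjusted p = 0.137), nor was Mbp, myelin basic protein (0.03 ± 0.13). Of 11 measured oligodendrocyte progenitor genes 1 was higher and 1 lower. Without below 3, 5 were higher, beside 29.6% of all genes.

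Among axon-related genes, 7 of 14 associated with growth were higher and 0 lower (median 0.46), and 6 of 14 inhibitors and their receptors were lower and 0 higher (median -0.36). With the flanks as 1 group these counts were 1 and 3, beside 10.6% of all genes higher and 15.4% lower. Without epicenter 4 the count of lower inhibitors was 3. Sprr1a and Atf3, both induced in injured neurons, rose by 1.33 ± 0.19 and 1.16 ± 0.32. Sprr1a had 16.9 to 26.8 CPM at the epicenter, 2.73 to 5.10 CPM above and 12.4 to 23.4 CPM below, so that below and epicenter overlapped. The inhibitors Ncan, neurocan, and Rtn4, which encodes Nogo, fell by 0.63 and 0.39, and Acan, aggrecan, by 0.74, the last a call lost when any 1 of 11 libraries was left out. Genes of the respiratory chain were lower in 5 of 16 cases, of glycolysis in 4 of 17 with 3 higher (2 lower without epicenter 4), and of hypoxia in 3 of 12 with 2 higher. Over all genes, 20.6% were lower and 19.3% higher, beside these lists and those that follow. The respiratory chain count was 3 without any 1 of 10 libraries, and that of lower hypoxia genes was 0 without any 1 of 9. Ldha, of lactate production, had 142 to 145 CPM at the epicenter, 80.9 to 90.5 CPM above and 80.4 to 151 CPM below (0.58 ± 0.12). Vegfa, the vascular growth factor, fell by 0.21, a call lost without any 1 of 10 libraries. Muscle and fat genes were higher in 2 of 10 and 2 of 5 cases, immediate early genes in 5 of 12, with 0 lower in these 3 lists; the fat count was 0 without above 4 or epicenter 2, 3 or 4, and the muscle count 4 without below 4.

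Hox genes record the level along the body axis. Of 18 genes of groups 4 to 9, 9 were lower below than above and 0 higher, while 4 were higher and 2 lower at the epicenter than the flank mean. Without below 3, 9 were lower below than above and 0 higher, while 6 were higher and 8 lower at the epicenter than the flank mean. Of all genes, 19.3% were higher and 20.6% lower at the epicenter, and 29.6% and 27.2% without below 3. Hoxc8 had 27.1, 30.1, 29.6 and 37.6 CPM at the epicenter, 49.4, 52.1, 46.7 and 47.0 CPM above and 13.8, 12.5, 14.3 and 14.2 CPM below. The 3 segments did not overlap, and the epicenter lay between the flanks: 0.65 lower than above, 1.18 higher than below, and 0.27 ± 0.08 from their mean (edgeR adjusted p = 0.0273), a call lost without above 3, above 4 or epicenter 4, and -0.01 with the flanks as 1 group. Hoxa5 (0.14 ± 0.07), Hoxa9 (-0.16 ± 0.08) and Hoxc9 (0.18 ± 0.11) were called between the flanks, at -0.45, -0.53 and -0.72, and not at the epicenter. Without below 3, Hoxa5 (0.19 ± 0.07, adjusted p = 0.0329) and Hoxa9 (-0.15 ± 0.05, adjusted p = 0.0208) were called there by edgeR.

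Of 9 tested genes of groups 10 to 13, which mark lumbar and sacral cord, 7 were called higher below than above, and 9 without below 3. Hoxa10 (mean 24.8 CPM above, 24.5 at the epicenter, 30.6 below) and Hoxc10 (30.9, 32.2 and 39.0 CPM) were the ones not called. Several others changed too steeply for a log-scale mean. Hoxa11 (mm10 chr6:52242106-52245810) held 931 counts over the 4 epicenter libraries, 1 above and 3163 below. Its level was 3.58, 4.28, 2.64 and 1.4 CPM at the epicenter, at most 0.0118 CPM above and 8.11 to 10.8 CPM below. The epicenter thus lay between the flanks, but its fitted difference was 3.81 ± 0.40, since a group with 1 count pulls the mean of the logs down. It became -0.69 with the 8 flanking libraries as 1 group. Hoxd10 behaved alike, with 3196 counts at the epicenter, 324 above and 9890 below (0.89 ± 0.32, and -0.59 with the flanks as 1 group). Hoxc12 held 4, 1 and 2570 counts at the epicenter, above and below, Hoxc13 held 0, 0 and 886, and Hoxd11 held 556, 9 and 7737. Most of the 556 epicenter counts of Hoxd11 and of the 358 of Hoxc11 lay in epicenter 2, at 5.79 and 3.58 CPM, against at most 0.678 and 0.408 CPM in the other epicenter libraries. For such genes the epicenter minus flank mean is no measure of a peak or dip. A gene on the opposite strand overlaps 35.0% of the exons of Hoxa11.

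**Figure D5:**
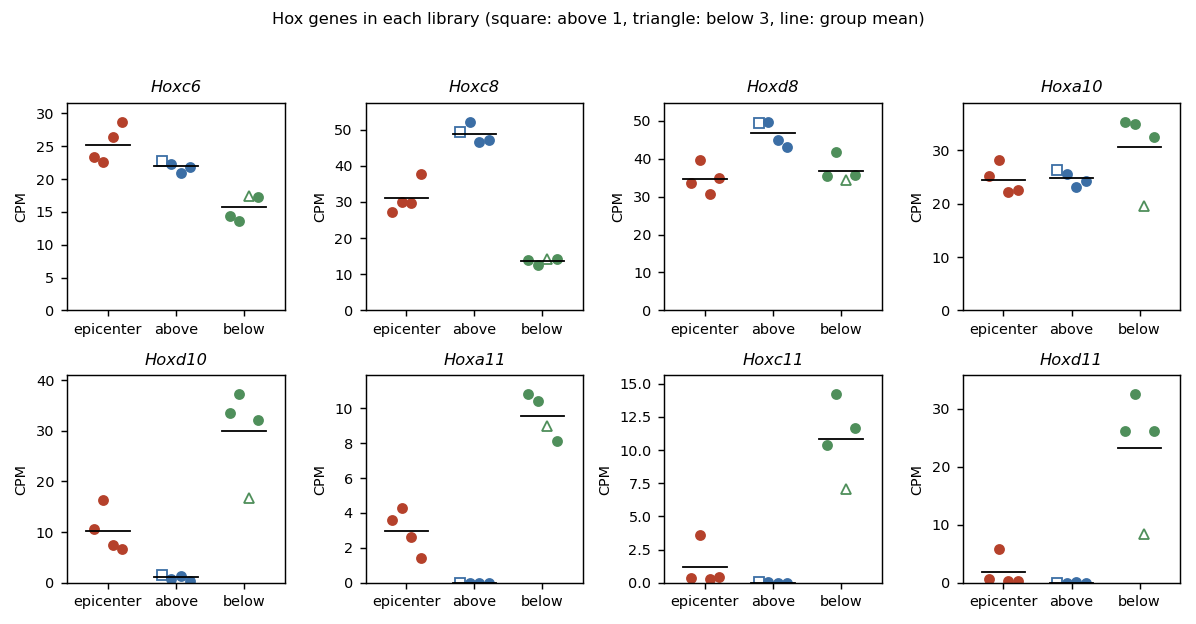
CPM of 8 Hox genes in each library on linear axes, by segment (epicenter, above, below), with the group mean as a line, above 1 as a square and below 3 as a triangle. Hoxc8 is highest above and lowest below with the epicenter between them, whereas Hoxa11, Hoxc11 and Hoxd11 are near 0 above and high below.

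With an adjusted p over 0.5 at the epicenter, 359 genes were called between the flanks. They were chosen for an epicenter near the flank mean, so that nearness is no result. The 3 with the largest excess below were Crh, corticotropin-releasing hormone (3.16), Hgf, hepatocyte growth factor (2.03), and Adgb, androglobin (1.63). Below 3 was highest in the last 2: Hgf had 2.96 to 8.73 CPM at the epicenter, against 3.34 to 6.57 CPM in the other below libraries and 16.8 CPM in below 3. Adgb had 3.86 to 8.76 CPM at the epicenter, 6.02 to 8.93 CPM in the other below libraries and 19.2 CPM in below 3. Without below 3, Hgf was called at the epicenter (0.70, edgeR adjusted p = 0.0495). Crh had 3.54, 7.33, 1.52 and 1.43 CPM at the epicenter, 1.18 to 1.68 CPM above and 5.76 to 18.8 CPM below. The 3 with the largest excess above were Dmp1, a matrix phosphoprotein (-1.42), Palm3, of the paralemmin family (-1.09), and Mgst3, a microsomal glutathione transferase (-0.97). Dmp1 had 4.19 to 7.27 CPM at the epicenter, 7.29 to 10.7 CPM above and 2.83 to 4.33 CPM below.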

How the data were processed

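RNA of 12 libraries from injured spinal cord was analysed, from the 16 of the series. Per the file headers, the values deposited by the authors are raw counts of reads for each gene and library, not normalized. Per the labels' protocols, RNA was extracted with RNA Stat60, and 200 ng of it entered a TruSeq RNA v2 preparation, which keeps no strand information. TopHat2 2.0.12, Subread 1.4.4, edgeR and the build mm10 are listed in the submitters' processing notes, without roles. How reads with several matches were counted, on which strand and with which annotation is not given in the sources used here, so reads of overlapping genes or near-identical copies (globins, immunoglobulins, S100a) cannot be told apart. Shared exonic bases were measured in GENCODE M21 on GRCm38. The 37 mitochondrial rows hold 0 counts.

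Of 43346 rows, filterByExpr by group kept 23525, with 99.97% or more of each library's counts. Counts were scaled by TMM and fitted with a term per segment and no covariate, and the epicenter minus the equal-weight mean of above and below, and below minus above, were tested with edgeR 4.0.16 in R 4.3.3 (glmQLFit and glmQLFTest). Benjamini-Hochberg adjustment ran over all 23525 genes, and a gene was called at an adjusted p under 0.05; an SE is the log2 difference over the square root of F. CPM use the TMM factors and are not per length. The SEs come from the quasi-likelihood fit and include the spread among libraries, whereas the floor of 3 counts covers counting error only.

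The 46 gene lists and the comparison itself were chosen with earlier results of these data known. Genes named are the marked genes of each list and all Hox members. To these were added, among called genes of at least 5 CPM with no overlap between epicenter and flanking libraries, the 8 largest in each direction and the 4 with the lowest adjusted p. The last are the 3 largest in each direction between the flanks with an epicenter p over 0.5. Mmp3, Bst2 and Gbp2 were named after their values were seen. Alternatives were other scalings, no filter, DESeq2 1.42.0, limma-voom (limma 3.58.1) with and without library weights, all 16 libraries, a replicate block, the flanks as 1 group, and leaving out libraries; comparing single libraries without below 3 was chosen after seeing the data. Some results that the naming rule would give are not reported here.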

Additional observations from a re-analysis of the deposited data

Results flagged for a closer look

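In 43 of 444 sets of 4 libraries (148 genes in 3 segments), the highest or lowest library lay far from the other 3 by Dixon's gap test; chance alone flags about 1 in 20. Above 1 held 14 of the 43 and below 3 held 10. No cause was tested.

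Above 1 was high for genes of peripheral myelin, with Prx at 55.2 CPM (others 0.882 to 1.35), Pmp22 at 185 (87.1 to 88.8) and Pmp2 at 2.00 (0.0755 to 0.188). It was high for matrix genes, with Col3a1 at 48.8 CPM (4.15 to 5.01), Col1a1 at 74.0 (10.1 to 11.7), Fn1 at 251 (98.7 to 109) and Aspn at 2.31 (0.996 to 1.01). It was also high for the meningeal genes Slc6a13, at 19.6 CPM (1.56 to 2.55), Slc13a4, at 24.1 (0.517 to 0.679), and Ptgds, at 1205 (412 to 448). H2-Aa stood at 11.1 CPM (1.85 to 2.80), Acp5 at 1.24 (0.200 to 0.302) and Foxj1 at 43.4 (39.2 to 39.6). Gria2 was low there, at 187 CPM (259 to 272).

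Below 3 was high for Spp1, at 1986 CPM (others 168 to 471), Aqp4, at 2331 (632 to 876), Rgs5, at 289 (126 to 142), Foxj1, at 70.7 (33.4 to 35.6), and Avil, at 3.54 (1.44 to 1.62). It was low for Gabrq, at 4.42 CPM (11.2 to 11.6), and for the Hox genes Hoxb6, at 18.8 (36.6 to 40.2), Hoxb7, at 8.15 (17.3 to 18.9), Hoxb9, at 16.5 (53.3 to 59.6), and Hoxc5, at 14.7 (19.3 to 20). Below 2 was low for Acp5, at 1.47 CPM (7.36 to 7.56), H2-Aa, at 16.9 (34.1 to 36.0), and Slc13a4, at 7.29 (15.4 to 16.7). Below 1 was high for Hbb-bs, at 171 CPM (95.6 to 108).

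Of the epicenter libraries, epicenter 4 was high for Scn10a, at 24.8 CPM (others 0.0930 to 0.753), Avil, at 23.9 (2.20 to 3.22), Hoxa5, at 25.6 (21.7 to 22.2), and Hoxc9, at 20.8 (15.1 to 15.7), and low for Serpina3n, at 514 (758 to 792). Epicenter 3 was high for Cd8a, at 1.62 CPM (0.714 to 0.830), and Mrc1, at 23.7 (15.2 to 16.1), and low for Mgst3, at 23.2 (37.6 to 39.5). Epicenter 2 was high for Hoxc11, at 3.58 CPM (0.279 to 0.408), and Hoxd11, at 5.79 (0.346 to 0.678).

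Above 4 was high for S100a8, at 4.63 CPM (others 1.26 to 1.48), and S100a9, at 8.12 (1.97 to 2.06), and low for Ifit3, at 13.8 (39.8 to 44.5), and Ccl2, at 0.586 (1.23 to 1.33). Above 2 was low for Rgs5, at 104 CPM, with the others at 114.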

How the results depend on the processing

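Of 3398 values for 148 genes under 23 alternatives, 3109 kept their side of the threshold, 181 lost the call and 3 changed sign. The rest gained a call, and 67 genes had no such change in any alternative. A change of sign was counted only where the main fit or the alternative called the gene. Uncalled changes of sign stand among the values kept, as for Hoxc11 (1.57, and -2.22 with the flanks as 1 group). The 3 counted were Hoxc8 (-0.01), Hoxa11 (-0.69) and Hoxd10 (-0.59), all with the flanks as 1 group. That fit called 6125 genes at the epicenter, 2491 higher, in place of 9390. Limma-voom with library weights called 14693 (6791 higher, 7902 lower), and the fit without above 1 and below 3 together called 7039 higher. Leaving out 1 library gave 6642 to 13371 called, 3439 to 6972 higher and 3203 to 6399 lower. Between the flanks, leaving out 1 library gave 1506 to 6140 called, 1119 to 3668 higher and 385 to 2472 lower. There the fit of all 16 libraries called 5797 (2169 lower), DESeq2 5607 (2216 lower), limma-voom with library weights 8137 (4203 higher, 3934 lower), library totals alone 4000 higher and 455 lower, and no filter 756 lower. The cause was not tested. Replicate numbers were not taken as pairs, because the labels do not link them. Same-numbered libraries had correlations of -0.0907 to 0.314, over 0.1 in 6 of 12 pairs, against -0.28 to 0.198 for others. In order of replicate number they were 0.115, 0.198, 0.314 and 0.0818 between epicenter and below. They were 0.0133, 0.141, 0.187 and -0.0496 between epicenter and above, and -0.0445, 0.151, -0.0907 and -0.0138 between above and below. These values do not exclude pairing, and the main fit ignores it. The replicate block called 9973 genes at the epicenter (4739 higher, 5234 lower), and 4727 between the flanks, 2008 of them lower. Of 1058 list counts 156 moved by over 1.5 times, 31 of them with the flanks as 1 group. Depth limits statements on genes near 0.0333 to 0.0447 CPM, such as the Hox genes above the injury.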

Other observations

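Some gene families, taken by symbol root after values were seen and so described without a test, moved together. Of 72 cytosolic ribosomal protein genes, which build the ribosome, 70 were higher at the epicenter than the flank mean and 0 lower, beside 19.3% and 20.6% of all genes. Their median difference was 0.59, and in 48 of the 72 all epicenter libraries lay above all flanking ones. Rpl41 had 241.3, 257.2, 209.4 and 311.2 CPM at the epicenter, 136.7, 121.3, 107.4 and 101.5 CPM above and 131.3, 120.1, 183.4 and 138.6 CPM below (0.98, edgeR adjusted p = 8.20e-04). The genes not called were Rpl15 (adjusted p = 0.984) and Rps15a (adjusted p = 0.0861). Summed over the family, the level was 9433.3 to 11693.1 CPM at the epicenter, 5982.8 to 7806.2 CPM above and 6895.2 to 9177.1 CPM below, below 3 being the highest flank library and still under every epicenter one. The flanks were called apart in 1 of the 72, and 68 to 71 were higher under every alternative tried. The share of reads of ribosomal RNA type was also higher at the epicenter, at 8.10 to 13.4%, against 4.93 to 6.98% above and 4.28 to 6.24% below; its part in the ribosomal protein result was not tested.

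Over all genes, 19.3% were higher and 20.6% lower, and 4.65% lay above and 4.43% below every flanking library, beside the families that follow. Of 44 collagen chain genes 23 were higher and 3 lower, Col19a1, Col24a1 and Col25a1, with 15 above every flanking library. Across the alternatives tried 13 to 29 were higher. Of 14 cathepsins, the proteases of lysosomes, 12 were higher and 0 lower, and of 4 Fc gamma receptors, which bind antibodies, 4 were higher. Across the alternatives tried these counts went as low as 3 and 2. Of 16 Wnt ligands 8 were higher and 0 lower (4 to 10 higher across the alternatives). Toward lower values, 11 of 15 subunits of GABA-A receptors, 8 of 16 of glutamate receptors and 32 of 84 Kcn potassium channel subunits were lower, with 0, 0 and 10 higher. Across the alternatives 9 to 14, 6 to 16 and 24 to 61 were lower. Of the clustered protocadherins, adhesion molecules of neurons, 15 of 22 of the beta cluster were lower (median -0.52), and 0 of 15 of the gamma cluster were called by edgeR (median 0.10). The genes of each cluster are alike in sequence, so reads may be split between them and the members may not vary separately. Without below 3, 14 of the 15 gamma genes were higher. Across the alternatives 0 to 15 gamma genes were higher and 9 to 18 beta genes lower. Of 15 dynein heavy chains of cilia 9 were lower and 0 higher (4 to 12 lower across the alternatives). Of 327 zinc finger genes named Zfp 108 were lower and 20 higher, 36 and 6 of them outside every flanking library. Across the alternatives 71 to 158 were lower and 11 to 52 higher.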
